A study of Homo sapiens with 4 samples.

Results

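Ribosome biogenesis genes encode the proteins that make ribosomes in the nucleolus. The group described here holds 40 named genes, taken from the deposited tables by gene identifier: proteins of the small nucleolar ribonucleoproteins, processing and assembly factors of both ribosomal subunits, and subunits and cofactors of RNA polymerase I. All 40 were found among 26485 gene identifiers, and all 40 were among 11711 protein-coding genes tested, those whose TPM averaged 1 or more across the libraries. TPM is a length-scaled share of all transcripts in a library, summing to the same total in each. RNA came from SW1736 and 8505C, 2 established human cell lines from anaplastic thyroid cancer, an aggressive and poorly differentiated tumour. Each line received DMSO, the vehicle, or 1.5 µM DHT for 24 h. DHT here is dihydrotanshinone, a compound of Salvia roots, and not the androgen of that abbreviation. Each line and treatment has 1 library, so no difference below has a replicate check and no test was run.

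Making a ribosome starts with RNA polymerase I, which copies the ribosomal DNA into one long precursor RNA. Small nucleolar ribonucleoproteins then guide chemical marks onto that RNA, box C/D particles adding methyl groups to sugars and box H/ACA particles converting uridine to pseudouridine. A large complex called the small subunit processome folds and cuts one part of the precursor, and other factors assemble the large subunit on the rest. Many of these genes are known as targets of MYC and are highly expressed in growing cancer cells. Ribosomal RNA itself was not analysed here.

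Depth, read from the ratio of coverage to FPKM, lay between 3.26 and 4.14 Gb of aligned bases per library; the number of reads is unknown, and values carry no counting error here. Of the thyroid markers, PAX8 and FOXE1 were present in SW1736 and NKX2-1 in 8505C, while TSHR was listed at 0 in all 4 libraries. The keratin genes KRT7, KRT8 and KRT18 had between 403 and 2081 TPM, and of the leukocyte markers CD3E was listed at 0 throughout, with PTPRC at 0.0498 TPM at most. The endothelial gene CDH5 stood at 128 and 147 TPM in the DMSO and DHT libraries of 8505C and at 0 in SW1736, while the other endothelial marker, PECAM1, was at 0.207 TPM at most. Of the matrix genes, COL1A1 stood at 349.9 and 146 TPM in SW1736 and below 1 in 8505C, and COL3A1 at 0.301 and 0.137 in SW1736 and at 2.69 and 7.77 in 8505C. EPCAM, CDH1, TG and DCN were at or near 0 in every library. The part of these markers in the results was not tested. In SW1736 most genes had lower TPM with DHT, with a median log2 fold of -0.42 over the 11711 genes, which was -0.20 with FPKM. In such bulk samples fewer cells with a transcript and less of it per cell cannot be told apart. Folds are differences of log2(TPM + 1), DHT minus DMSO unless stated otherwise, and understate the fold of low genes. They are also given relative to the median gene where this alters their reading.

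The promoters of the 2 members with the lowest and the 2 with the highest fold in SW1736 are printed to show where the E-box CACGTG lies, a motif that MYC with its partner MAX is known to bind. Each window runs from 250 bases before to 50 after an annotated start, 5′ to 3′ on the gene's strand (RefSeq, GRCh38.p14), with CACGTG in capitals. The windows are chr12:101279855-101280154, plus strand for UTP20, chr2:86105837-86106136, minus strand for POLR1A, chr19:39846330-39846629, minus strand for FBL and chr5:176388549-176388848, minus strand for NOP16.
UTP20: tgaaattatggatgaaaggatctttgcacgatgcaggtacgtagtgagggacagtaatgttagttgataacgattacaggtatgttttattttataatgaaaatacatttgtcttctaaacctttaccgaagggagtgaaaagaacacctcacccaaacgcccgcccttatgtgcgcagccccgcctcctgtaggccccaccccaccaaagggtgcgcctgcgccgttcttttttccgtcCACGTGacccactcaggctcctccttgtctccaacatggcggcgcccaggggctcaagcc
POLR1A: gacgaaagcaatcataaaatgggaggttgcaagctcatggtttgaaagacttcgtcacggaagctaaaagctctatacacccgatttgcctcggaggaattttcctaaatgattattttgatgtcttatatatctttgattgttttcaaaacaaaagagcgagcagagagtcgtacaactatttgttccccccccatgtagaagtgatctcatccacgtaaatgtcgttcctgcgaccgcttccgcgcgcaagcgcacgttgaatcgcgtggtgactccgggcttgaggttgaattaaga
FBL: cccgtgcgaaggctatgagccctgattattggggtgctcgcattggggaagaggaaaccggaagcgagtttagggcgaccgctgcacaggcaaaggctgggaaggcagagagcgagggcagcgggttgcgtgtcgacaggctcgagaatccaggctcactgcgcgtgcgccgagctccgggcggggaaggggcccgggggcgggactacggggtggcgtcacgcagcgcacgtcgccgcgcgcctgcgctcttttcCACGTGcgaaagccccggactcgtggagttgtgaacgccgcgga
NOP16: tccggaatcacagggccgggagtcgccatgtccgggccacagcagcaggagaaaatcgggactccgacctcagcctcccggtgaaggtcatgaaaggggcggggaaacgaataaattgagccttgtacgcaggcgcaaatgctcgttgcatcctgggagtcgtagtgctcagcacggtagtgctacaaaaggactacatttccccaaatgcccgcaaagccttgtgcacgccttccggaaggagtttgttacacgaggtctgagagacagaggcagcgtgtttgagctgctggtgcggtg

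UTP20 and FBL, at opposite ends of the fold order, each held 1 CACGTG, starting at position -10 in UTP20 and at position 7 in FBL, counted from the start as 1. POLR1A and NOP16, also at opposite ends, held none in their windows. The POLR1A window lies inside the listed locus of the gene, whose 5′ end on the minus strand is 86106155. Bases before that end were not searched for POLR1A. Windows were present for 31 of the 40 members, 37 windows in all, and 13 of the 31 members (41.9%) held CACGTG. The same motif was found in 12.7% of the 9687 tested genes with a window and in 7.26% of all 35116 windows. The 13 were BYSL, DDX21, FBL, GAR1, GNL3, NOP10, NOP14, NOP2, PES1, RRP9, UTP18, UTP20 and WDR43, with 2 matches each in NOP10 and UTP18. For PES1 and BYSL the only window, and for DDX21 and GAR1 the window with the motif, lay wholly inside the gene's listed locus. Such windows hold no bases before the 5′ end of that locus. The same held for every window of WDR12 and UBTF, which were counted as without the motif. Of the 15 matches in members, 13 (86.7%) began within 50 bases of the start, beside 39.0% of 1496 matches in the tested genes. Of 107 other biogenesis factors with a window 27.1% held the motif, and of 63 cytosolic ribosomal protein genes 6.35%.

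The 3 other motifs searched on both strands, without removing overlaps between motifs, were CGCGTG, CCGGAAGT and TATAAA. They were found in 12, 5 and 1 of the 31 members (38.7%, 16.1% and 3.23%), beside 22.9%, 10.6% and 8.39% of the tested genes. The 1 member with TATAAA was UTP20. A match describes these letters in this window and not a bound site. In SW1736 the median log2 fold was -0.07 for the 13 members with CACGTG and -0.31 for the 18 without, and in 8505C it was -0.08 and -0.10. The same split over all tested genes is not given here. These sets were also not matched for mRNA length, with which the SW1736 folds ran, as described below. The part of the motif in these medians was not tested. MYC, an activator of growth genes, had 125 and 614 TPM in the DMSO and DHT libraries of SW1736, and 213 and 208 in 8505C, and its part in these values was not tested.

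The levels of the group spanned from 5.38 to 4238 TPM over genes and libraries. NPM1 was the most abundant member, followed by NCL and FBL, and UTP15, UTP20 and DDX52 were the least abundant. NPM1 encodes nucleophosmin, a nucleolar histone chaperone that shuttles between nucleolus and cytoplasm. It had 1591 and 1816 TPM in the DMSO and DHT libraries of SW1736, and 4238 and 2647 in those of 8505C. NCL, which encodes nucleolin, an RNA-binding protein of the nucleolus, stood at 1313, 1076, 1701 and 1555 TPM in the same order. Both genes were thus higher in each 8505C library than in each SW1736 library. Summed, the 40 members held 7825 and 7321 TPM in SW1736 with DMSO and DHT, and 11350 and 9452 in 8505C. NPM1 alone made up between 20.3% (SW1736, DMSO) and 37.3% (8505C, DMSO) of these sums. Without NPM1 the sums were 6234 and 5506 in SW1736, and 7112 and 6805 in 8505C.

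**Figure D1:**
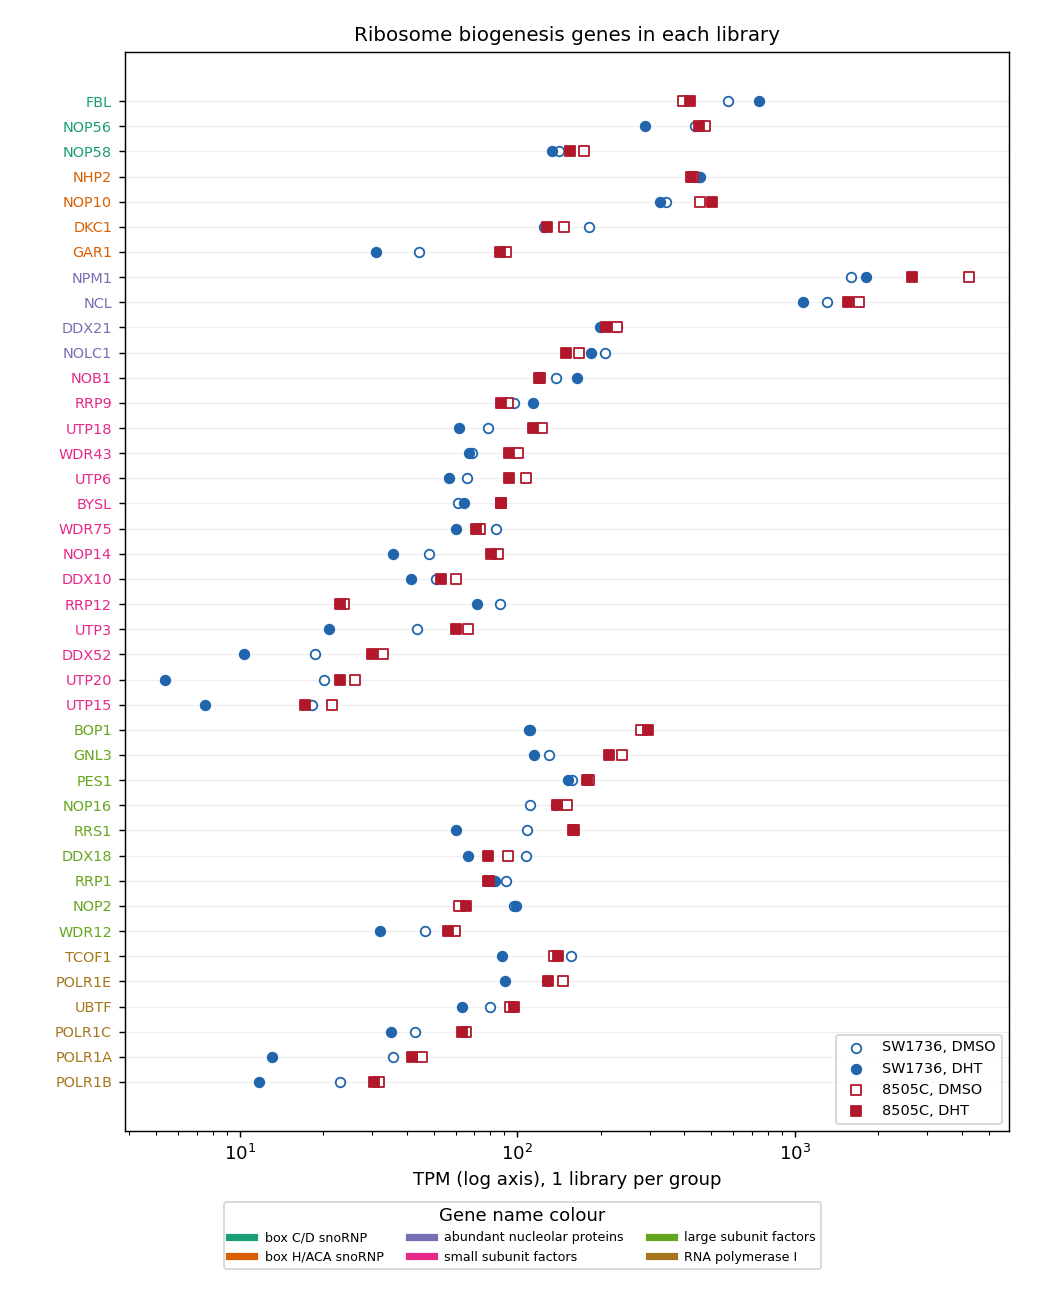
TPM of each of the 40 members (log axis) in the 4 libraries, 1 point per library, with gene names coloured by role and ordered by mean level within each role. In SW1736 the filled DHT points of UTP20, UTP15 and POLR1A lie far to the left of the open DMSO points (5.38 and 20.1 TPM for UTP20), while in 8505C most pairs nearly coincide.

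The first comparison asked how the mRNAs of the ribosome factory differed in SW1736 after DHT. Of the 40 members, 32 were below 0 (77.8% of all tested genes were), and the median log2 fold was -0.28 with quartiles of -0.55 and -0.04. At least 2-fold lower were 4 members, UTP20, POLR1A, UTP15 and UTP3, beside 15.6% of all tested genes, and none was 2-fold higher, beside 2.78%. At 1.5-fold, 10 members were lower and none higher, beside 38.2% and 4.7% of all genes. Among the 6250 genes averaging 20 TPM or more, 11.2% were 2-fold and 31.4% were 1.5-fold lower, and 2 and 8 of the 38 members above that level were. At that level the median log2 fold was -0.34 for all genes and -0.27 for the 38 members. The median member was thus less far below 0 than the median gene, by less among genes at that level. Relative to the median of all 11711 genes, the median member was 0.14 higher, with 16 members below it and 24 above. Both the direction of the group's median and the count at 2-fold depended on that reference. With FPKM in place of TPM the median of the members was -0.06, and 2 were 2-fold lower.

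RNA polymerase I was the role with the lowest median in SW1736, -0.65. All 6 of its members were below 0, beside 77.8% of all tested genes, as were all 4 box H/ACA members. POLR1A, POLR1B, UBTF and TCOF1 have mRNAs above 4229 nt, a length at which the median of all genes was -0.72. The part of mRNA length in the role's median was not tested. POLR1A encodes the largest subunit, which with that of POLR1B forms the active centre. POLR1A (chromosome 2, 86026328 to 86106155, minus strand) had 35.7 TPM in the DMSO library and 13.04 in the DHT library of SW1736, and 45.5 and 41.7 in the same order in 8505C. Its log2 fold in SW1736 was -1.39, or -0.97 relative to the median gene. POLR1B went from 23.0 to 11.7 TPM in SW1736 (log2 fold -0.92), and stood at 31.8 and 30.4 in 8505C. For both catalytic subunits the DHT library of SW1736 was the lowest of the 4.

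TCOF1, which encodes treacle, a nucleolar scaffold for RNA polymerase I and its factors, stood at 156 and 88.5 TPM in SW1736 and at 136 and 141 in 8505C. Its log2 folds were -0.81 and 0.05. POLR1E, which encodes a subunit that helps the enzyme bind its initiation factors, had a log2 fold of -0.49 in SW1736 and -0.17 in 8505C. POLR1C, whose subunit is shared with RNA polymerase III, had -0.27 and -0.05. UBTF, the upstream binding factor that keeps ribosomal DNA open, had -0.33 and 0.04. POLR1C and UBTF were above the median gene of SW1736, by 0.15 and 0.09, and the other 4 of the role were below it.

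The small subunit factors had the widest spread. Their 14 members ran from -1.73 to 0.25 in SW1736, with a median of -0.32, and 3 were 2-fold lower. UTP20 encodes a very large protein of the small subunit processome (chromosome 12, 101280127 to 101386619, plus strand). In SW1736 it had 20.1 TPM without and 5.38 with the compound (log2 fold -1.73), and in 8505C 26.1 and 23.0. UTP20 was the only member at least 2-fold lower relative to the median gene too, at -1.31, beside 4.24% of all tested genes by that measure. UTP15, part of the processome module that is also needed for transcription of ribosomal DNA (chromosome 5, 73565741 to 73583377, plus strand), stood at 18.3 and 7.51 TPM in SW1736 and at 21.5 and 17.3 in 8505C. UTP3, a processome protein that also goes by the name SAS10 (chromosome 4, 70688479 to 70690551, plus strand), stood at 43.7 and 21.1 in SW1736 and at 66.4 and 60.0 in 8505C. Their log2 folds in SW1736 were -1.18 and -1.02, or -0.76 and -0.60 relative to the median gene, so that neither was 2-fold by that measure. All 3 had their lowest level in the DHT library of SW1736.

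WDR43 and WDR75 belong to the same processome module as UTP15 but differed from it in fold. WDR43 stood at 68.8 and 67.1 TPM in SW1736 (-0.03) and WDR75 at 84.0 and 60.1 (-0.48). UTP6 and UTP18, of another module, had folds of -0.21 and -0.34, and NOP14 had -0.42, near the median gene. DDX52, an RNA helicase, stood at 18.7 and 10.4 TPM in SW1736 (-0.79) and at 32.8 and 29.9 in 8505C. Its reads are listed at a chromosome locus and at an alternate haplotype, and the rows were summed. DDX10, also a helicase, had -0.29.

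The other small subunit factors were NOB1, BYSL, RRP12 and RRP9. NOB1, the endonuclease that makes the last cut of the small subunit RNA, went from 138 to 165 TPM (0.25), and at 120.1 and 120.5 in 8505C. BYSL, a factor of late precursors, stood at 61.2 and 64.5 (0.07), and RRP12, which takes part in export, at 86.5 and 71.6 (-0.27). RRP9, a protein of the box C/D particle that guides the early cuts, had 97.2 and 115 TPM (0.23). Relative to the median gene of SW1736 these 4 were higher by 0.67, 0.49, 0.15 and 0.65, and 8 of all 14 small subunit members were above it.

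**Figure D2:**
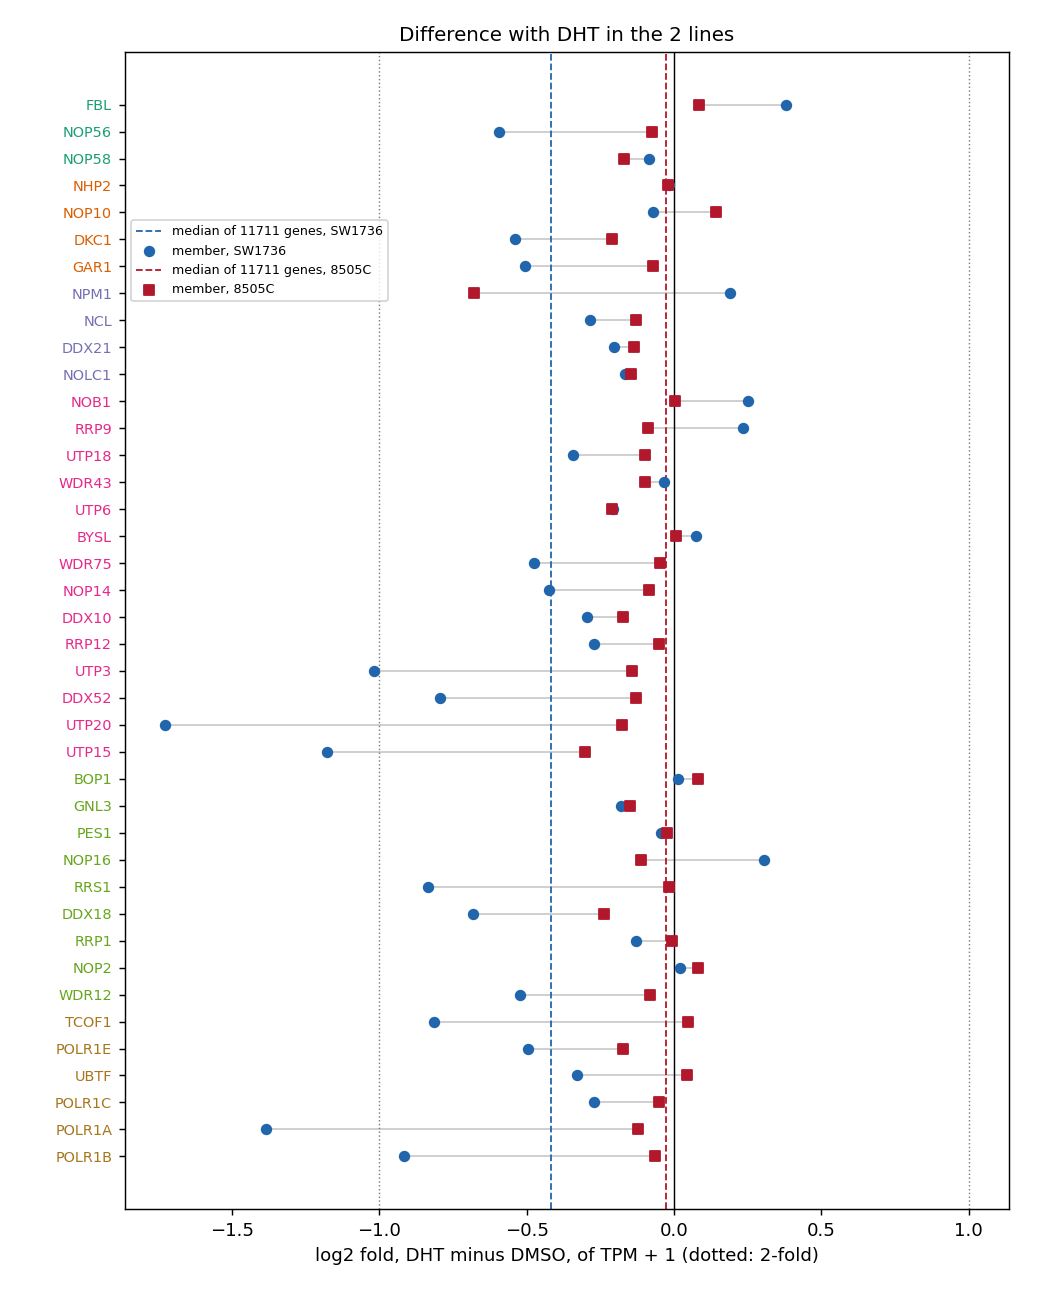
Log2 fold of TPM + 1, DHT minus DMSO, for each of the 40 members in SW1736 (blue circles) and 8505C (red squares), joined by a grey line. Dashed lines mark the median of 11711 genes in each line (-0.42 and -0.03); UTP20, POLR1A, UTP15 and UTP3 lie left of the dotted 2-fold line in SW1736, and NPM1 is the leftmost point of 8505C.

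The large subunit factors, 9 members, had a median of -0.13 in SW1736 with none at 2-fold. PES1, BOP1 and WDR12 form one complex that is needed for cutting the precursor of the large subunit. PES1 stood at 158 and 153 TPM and BOP1 at 110.1 and 111 in SW1736, whereas WDR12 went from 46.6 to 32.1. Their log2 folds were -0.05, 0.01 and -0.52, so the members of the complex did not share a fold. Their mRNAs have 2295, 2303 and 8100 nt in the same order, and the part of length in these folds was not tested. RRS1, which helps bring the small ribosomal RNA particle into the large subunit, stood at 108 and 60.2 TPM in SW1736 and at 160.5 and 159 in 8505C, with folds of -0.83 and -0.02. DDX18, a helicase, went from 107 to 66.5 (-0.68). GNL3, or nucleostemin, a GTPase of proliferating cells, and RRP1 had -0.18 and -0.13. NOP16, a nucleolar protein, stood at 112 and 138 TPM in SW1736 (0.30) and at 151 and 139.7 in 8505C, and NOP2, an RNA cytosine methyltransferase, at 97.3 and 98.8 (0.02).

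Proteins of the modification particles had medians of -0.08 for the 3 of box C/D and -0.29 for the 4 of box H/ACA in SW1736. Both medians were above that of all genes, as was that of every role but RNA polymerase I. NOP56, DKC1 and GAR1 were below the median gene. FBL encodes fibrillarin, the methyltransferase of the box C/D particles (chromosome 19, 39834453 to 39846414, minus strand). It had 574 TPM in the DMSO library and 747 in the DHT library of SW1736, the highest fold of the group at 0.38, and 396 and 419.9 in the same order in 8505C. Its partners, the core proteins NOP56 and NOP58, did not share that value: NOP56 stood at 437 and 289 TPM in SW1736 (-0.59) and NOP58 at 142 and 134 (-0.08). Of the box H/ACA proteins, DKC1, the pseudouridine synthase dyskerin, went from 182 to 125 TPM (-0.54) and GAR1 from 44.3 to 30.9 (-0.51), against 91.0 and 86.6 for GAR1 in 8505C. Their small partners NHP2 and NOP10 stood at 456 and 451 and at 345 and 328, with folds of -0.02 and -0.07. Both particles thus held proteins with unlike folds.

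Of the nucleolar proteins outside these particles, NCL had in SW1736 a log2 fold of -0.29, DDX21, a helicase that links transcription and processing of ribosomal RNA, -0.20, NOLC1, a chaperone of the small nucleolar particles, -0.17, and NPM1 0.19. All 4 were above the median gene.

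Other genes of the same pathway, chosen by their known role with results of the series known, serve here as a comparison. Of 120 such factors 119 were tested, and their median in SW1736 was -0.33. At least 2-fold lower were 13 of the 119, beside 15.6% of all tested genes, and 1 was higher, beside 2.78%. The lowest were EXOSC3, a subunit of the RNA exosome (75.5 and 23.5 TPM, -1.64), the giant ATPase gene MDN1 (7.83 and 2.16, -1.48) and URB1 (23.6 and 7.98, -1.45). The highest were TAF1D, of the RNA polymerase I initiation factor (75.03 and 197 TPM, 1.38), ZNF622 (0.55) and NOC4L (0.33). By role, the medians were -0.27 for 41 small subunit factors, -0.28 for 44 large subunit factors, -0.42 for 10 RNA polymerase I genes and -0.50 for 24 genes of the exosome and RNase MRP. In 8505C their median was -0.08 and none was 2-fold either way, beside 0.273% of all tested genes higher and 0.171% lower. The lowest there were MDN1 (-0.31), RPP38 of RNase MRP (-0.25) and the initiation factor gene RRN3 (-0.24), and the highest TAF1C (0.18), NOC4L (0.16) and RRP7A (0.14).

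Ribosomal protein genes, the building blocks that these factors assemble, had other values. The 79 cytosolic ribosomal protein genes had a median of 0.38 in SW1736, and 1 of them, RPL15 (-0.62, chosen after its value was seen), was below 0. Relative to the median gene, 75 of the 79 were at least 1.5-fold higher, beside 13.1% of all tested genes. Of the 40 biogenesis members 5 were, a share near that background. In 8505C the ribosomal protein genes had a median of 0.01. Of all TPM, the ribosomal protein genes held 17.2% with DMSO and 22.6% with DHT in SW1736, and 18.3% and 18.4% in 8505C. As TPM is a share, a larger part for these genes leaves less for all others. The difference between the 2 groups of genes was not tested, nor was the part of mRNA length and level in it.

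**Figure D3:**
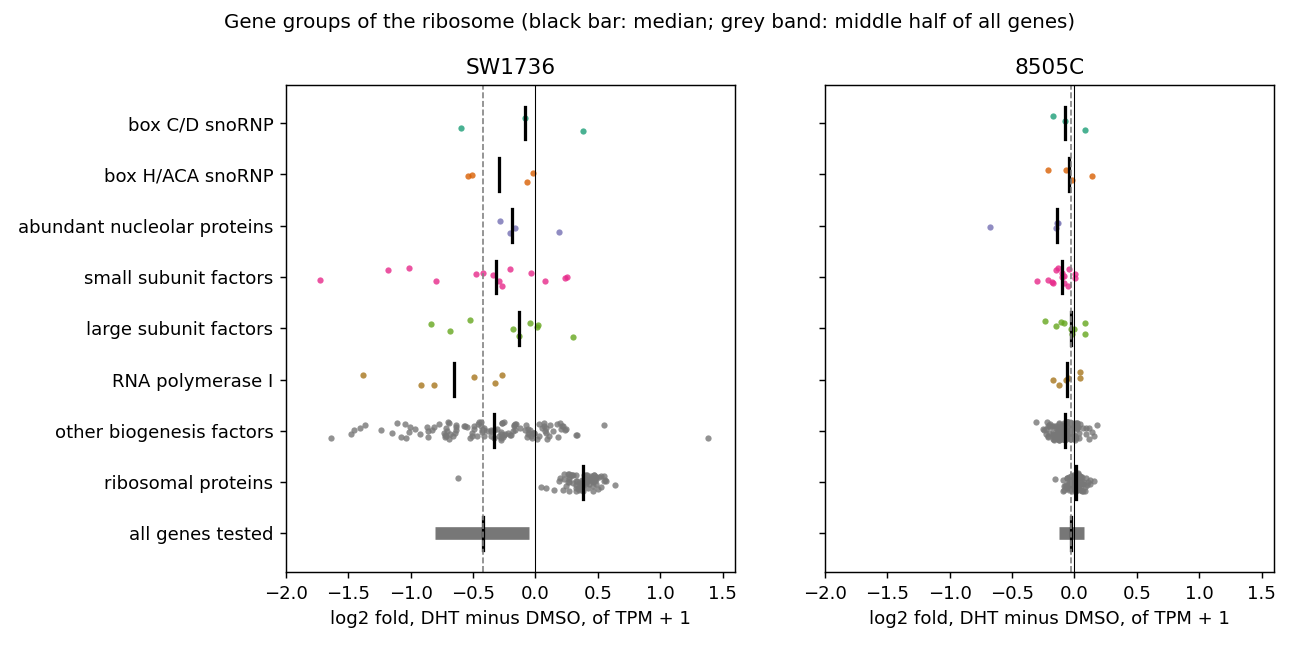
Log2 fold of TPM + 1, DHT minus DMSO, in SW1736 (left) and 8505C (right), with 1 point per gene for the 6 roles of the members, for 119 other biogenesis factors and for 79 ribosomal protein genes, a black bar at each median and a band between the quartiles of all 11711 genes. In SW1736 the medians are -0.65 for RNA polymerase I and 0.38 for ribosomal proteins, with the dashed median gene at -0.42.

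Within the group, the SW1736 folds ran with properties of the mRNA. Across the 40 members, the log2 fold had a Pearson's r of -0.59 and a Spearman's rho of -0.54 with the log2 length of the mRNA, and an r of 0.59 and a rho of 0.57 with its log2 mean level. These points share libraries, and genes are not independent replicates, so no p is given. The mean level is taken over all libraries, those of the fold included, so level and fold are not independent measures. Over 11687 tested genes with an mRNA model, r with length was -0.35 and rho -0.42, and with level they were 0.14 and 0.17. In 3 equal groups of these genes by length, cut at 2361 and 4229 nt, the SW1736 medians were, from short to long, -0.14, -0.45 and -0.72. The 18, 12 and 10 members in the same groups had medians of -0.06, -0.36 and -0.66. At least 1.5-fold lower were 2, 3 and 5 of them, beside 17.5%, 38.0% and 59.3% of the genes in these groups. The members' medians therefore stood within 0.1 of those of all genes of like length in each group. UTP20, with an mRNA of 9025 nt, and POLR1A, with 12749, have the longest mRNAs of the group, while FBL has 1160 and NOP10 554.

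Some short mRNAs went against this order, here chosen after their values were seen. UTP3 (2073 nt) and RRS1 (1706 nt), the 2 members with a single exon, were at -1.02 and -0.83 in SW1736, and GAR1 (1224 nt) and POLR1E (1868 nt) at -0.51 and -0.49. Among 140 single-exon genes of the shortest group the median was -0.05, with 20.7% at least 1.5-fold lower. With linear trends on mRNA length, GC content and level removed over all genes, UTP20 was at -0.91, UTP3 at -0.71, UTP15 at -0.60 and POLR1A at -0.60, so that no member was 2-fold lower.

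**Figure D4:**
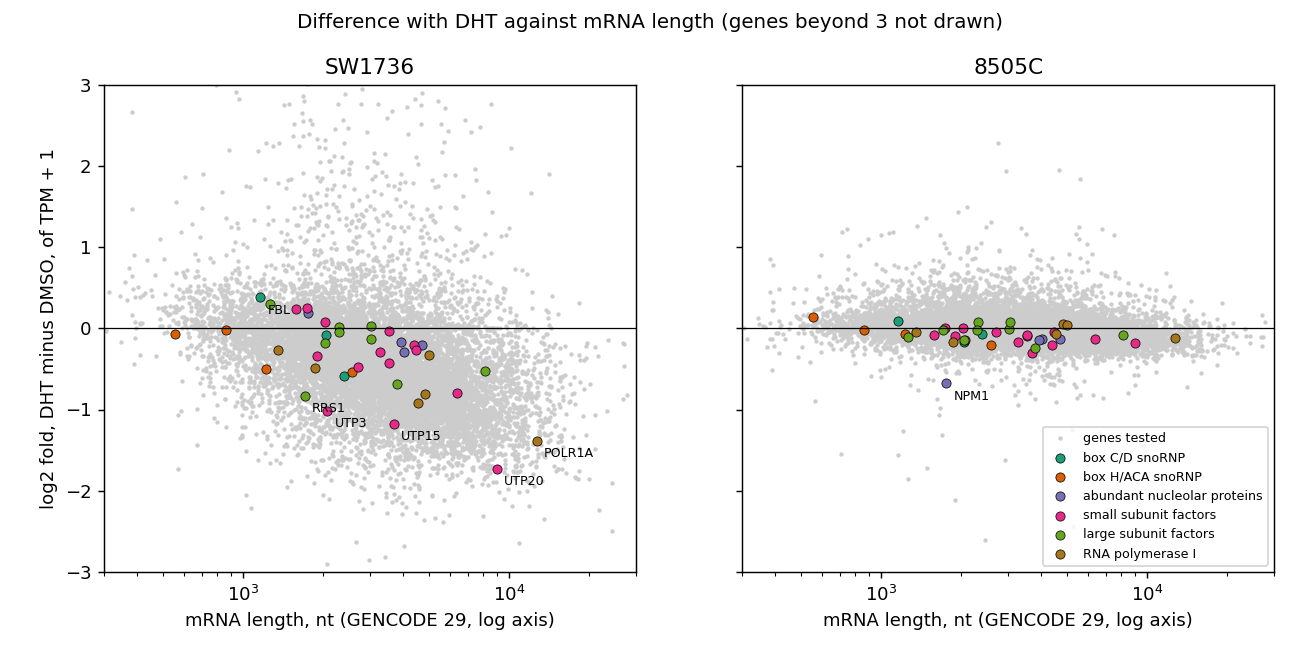
Log2 fold of TPM + 1, DHT minus DMSO, against mRNA length in nt (log axis) for SW1736 (left) and 8505C (right), with the 40 members in colour over all tested genes in grey (genes with a fold beyond 3 either way or a length outside the axis are not drawn). In SW1736 the long mRNAs of UTP20 and POLR1A (-1.73 and -1.39) lie with the lower part of the grey cloud, and in 8505C the members lie close to 0 apart from NPM1 at -0.68.

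The second comparison asked the same of 8505C, where differences were small. Of the 40 members, 32 were below 0, beside 57% of all tested genes, and 38 were within 1.2-fold of the DMSO library, beside 88.1%. The median was -0.09, beside -0.03 over all genes, with quartiles of -0.15 and -0.02. No member was 2-fold apart, beside 0.273% of genes higher and 0.171% lower. At 1.5-fold 1 member was lower, beside 0.538%, and none higher, beside 1.26%.

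That member was NPM1 (chromosome 5, 171387704 to 171410884, plus strand), which went from 4238 to 2647 TPM (log2 fold -0.68). Its value with DMSO was the highest of the 4 libraries, and 8505C with DHT was still above both SW1736 libraries. With FPKM the NPM1 fold was -0.66, and with trends on length, GC content and level removed it was -0.58. NPM1 is known for processed copies elsewhere in the genome, and how reads shared with them were placed is not given in the sources used here, so its level is uncertain. The next lowest were UTP15 (-0.30), DDX18 (92.6 and 78.4 TPM, -0.24), DKC1 (-0.21) and UTP6 (-0.21). The highest were NOP10 (456 and 503 TPM, 0.14), FBL (0.08), NOP2 (61.9 and 65.6 TPM, 0.08) and BOP1 (279 and 296 TPM, 0.08).

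In 8505C the folds of the members ran with the GC content of the mRNA, with an r of 0.57 and a rho of 0.68 across the 40, beside 0.35 and 0.47 over all tested genes. By role the 8505C medians lay between -0.14 for NCL, NPM1, NOLC1 and DDX21 and -0.02 for the large subunit factors. The RNA polymerase I genes, lowest of the roles in SW1736, had a median of -0.06 in 8505C.

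Set side by side, 29 members were below 0 in both lines, beside 48.5% of all tested genes, and 5 were above 0 in both, beside 12.4%, namely FBL, BOP1, NOP2, BYSL and NOB1. Those below 0 in SW1736 and above it in 8505C were NOP10, UBTF and TCOF1, and NPM1, NOP16 and RRP9 had the opposite order. No member was at least 1.5-fold lower or higher in both. The fold was lower in SW1736 than in 8505C for 30 of the 40, beside 79.3% of all tested genes, so the members' share was near the background. Across the members the folds of the 2 lines had a Pearson's r of 0.17 and a Spearman's rho of 0.34. These 2 comparisons share no library. Whether the lines differ in their response was not tested.

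The untreated lines were compared next. The members were higher in 8505C in the median, by 0.32 on the log2(TPM + 1) scale, beside -0.05 over all tested genes, and 28 of the 40 lay above 0, beside 47% of all genes. At least 2-fold higher in 8505C were 3 members, beside 9.96% of genes, and 1 was lower, beside 12.6%. At 1.5-fold 10 were higher and 2 lower, beside 18.9% and 24.2%. The 3 higher members were NPM1 (1.41), BOP1 (110.1 TPM in SW1736 and 279 in 8505C, 1.34) and GAR1 (44.3 and 91.0, 1.02). GNL3 (129.9 and 238), NOP14 (48.3 and 85.2), DDX52 (18.7 and 32.8), UTP6 (65.7 and 108) and UTP18 (78.7 and 122) followed, from 0.87 to 0.63.

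RRP12 was the exception in the other direction (chromosome 10, 97356701 to 97401370, minus strand). It had 86.5 and 71.6 TPM in the DMSO and DHT libraries of SW1736, and 23.8 and 23.0 in 8505C. Both 8505C libraries were thus more than 2-fold below both SW1736 libraries, with a log2 difference of -1.82 between the DMSO libraries. NOP2 (97.3 and 61.9 TPM) and FBL (574 and 396) were lower in 8505C, with log2 differences of -0.64 and -0.53. NOLC1 stood at 207 and 167, and DDX21 at 229 and 229.8, close to equal.

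**Figure D5:**
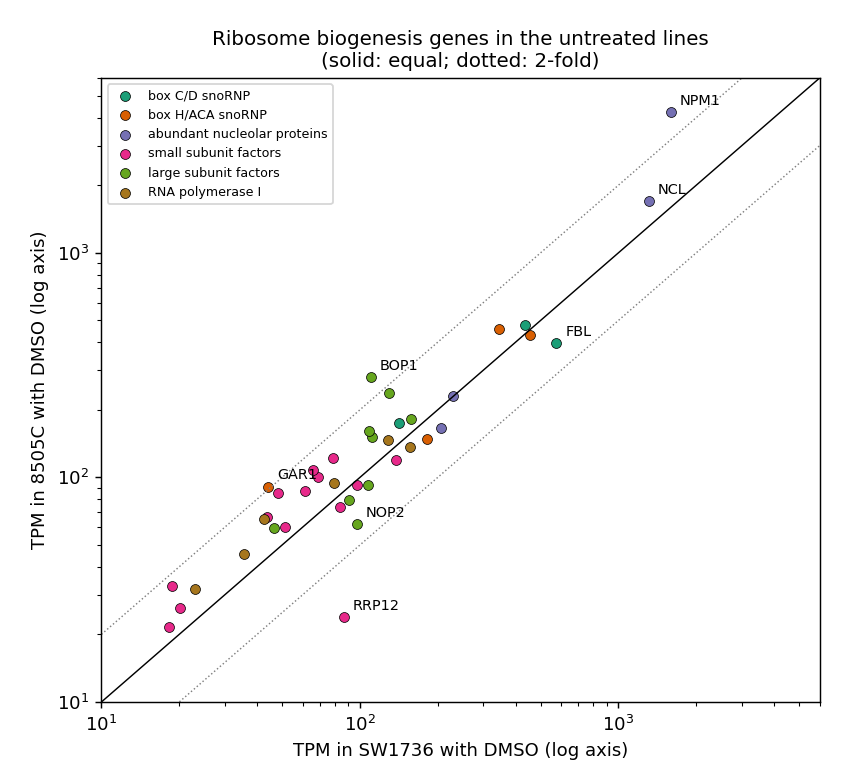
TPM of the 40 members in SW1736 with DMSO (horizontal, log axis) against 8505C with DMSO (vertical, log axis), 1 point per gene coloured by role, with lines for equal levels and for 2-fold. NPM1, BOP1 and GAR1 lie on or above the upper 2-fold line and RRP12 far below the lower one (86.5 and 23.8 TPM).

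With DHT in both lines, the median difference between 8505C and SW1736 was 0.54, beside 0.37 over all genes. It was wider than the 0.32 of the DMSO libraries in TPM but narrower relative to the median gene, at 0.16 against 0.37. At least 2-fold higher in 8505C were 10 members, beside 24.7% of genes, and 1 was lower, beside 10.6%. The share of higher members was thus near the background. Relative to the median gene 7 were 2-fold higher and 2 lower, beside 1702 and 1901 of the 11711 tested genes. At 1.5-fold 19 were higher and 2 lower, beside 40.9% and 17.1%. The 10 were UTP20 (1.91), POLR1A (1.61), UTP3 (1.47), GAR1 (1.46), DDX52 (1.44), BOP1 (1.41), RRS1 (1.38), POLR1B (1.30), NOP14 (1.15) and UTP15 (1.10). RRP12 was again the lowest at -1.60. This comparison shares its libraries with those of DHT against DMSO. All 6 RNA polymerase I genes were higher in 8505C here, beside 66% of all tested genes, with a median of 0.74 against 0.29 in the DMSO libraries. Relative to the median gene these medians were 0.37 and 0.34.

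Position in the genome was the last property looked at. Of the 40 members 8 lay on chromosome 2, which holds 6.72% of the tested genes: NOP58, NCL, WDR43, WDR75, WDR12, DDX18, POLR1A and POLR1B. Their SW1736 folds ran from -1.39 to -0.03. Small nucleolar RNA genes lay inside 6 members, with 5 in NOP56, 3 each in NCL, NOP58 and GNL3, and 2 each in DKC1 and WDR43. In the tables these are rows of their own, and reads may be shared between them and their host. The folds of the 6 hosts in SW1736 lay between -0.59 for NOP56 and -0.03 for WDR43. NOP14, WDR12, GNL3 and BOP1 overlap other genes (an antisense RNA, CARF, GLT8D1 and SCX), and whether the counting used strand is not given in the sources used here.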

How the data were processed

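mRNA libraries, 4 in all with 1 per line and treatment, were analysed. The submitters' processing notes name bcl2fastq 2.20, StringTie and the build hg38. The sources used here give no aligner, annotation or StringTie version. The gene tables deposited by the authors hold TPM, FPKM and coverage, per the file headers. The TPM values sum to the same total in each library, and the ratio of coverage to FPKM gave the depth. Rows of 1 gene identifier were summed. Identifiers were matched to RefSeq genes by symbol (23758), through GENCODE 29 (823) or by a synonym of 1 gene (790). Genes tested were protein-coding and averaged 1 TPM or more, and were compared as differences of log2(TPM + 1). With 1 library per group no test was run, and counts at 2-fold and 1.5-fold stand beside those of all tested genes. The computation was tested on simulated data.

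mRNA length, exons and GC content come from the longest principal protein-coding transcript of GENCODE 29, on the files' build. Promoter windows come from RefSeq. The members, the lists and the motifs were chosen with earlier results of these data known. Values per library are printed for members at least 2-fold apart with DHT, the 3 highest and 3 lowest of each DHT comparison and of the DMSO libraries, and the 3 most and 3 least abundant; other members are printed by role. From the other biogenesis factors the 3 highest and 3 lowest of each DHT comparison were taken at a mean of at least 5 TPM. Python 3.11.15, pandas 2.3.3, numpy 2.4.6 and matplotlib 3.10.9 were used.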

Additional observations from a re-analysis of the deposited data

How the results depend on the processing

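With 1 library per group every value rests on single libraries, read numbers are unknown, and the unequal depth of the 4 libraries was not modelled. No paired analysis was possible because each line and treatment has 1 library. Per comparison, 11 alternatives were tried, and removing trends on mRNA length, GC content and level was added after seeing the data. Counts are at 2-fold, and a median counted as moved beyond 0.1.

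In SW1736 the count of 4 lower members became 2 with a pseudocount of 5, with a mean of at least 20 TPM and with FPKM, 1 when centred on the median gene, 0 with trends removed and 10 at 1.5-fold. Its median of -0.28 became -0.0577 with FPKM, 0.14 when centred and 0.0803 with trends removed, so its sign depended on the reference. In 8505C 1 member was lower at 1.5-fold. Between the DMSO libraries, 10 were higher and 2 lower at 1.5-fold. Between the DHT libraries, 2 were lower with FPKM, when centred and at 1.5-fold, 19 were higher at 1.5-fold and 6 with trends removed, and the median of 0.54 became 0.33, 0.16 and 0.19 with FPKM, centring and trends removed. Other medians and counts kept their direction within these limits. Of single members in SW1736, UTP3 and UTP15 were under 2-fold with a pseudocount of 5, FPKM, centring and trends removed, UTP3 also when rescaled without ribosomal protein and non-coding genes, POLR1A with centring and trends removed, and UTP20 with trends removed. Between the DMSO libraries GAR1 was, with a pseudocount of 5 (0.96), FPKM and trends removed. Between the DHT libraries UTP15 was with a pseudocount of 5, UTP15 and NOP14 with FPKM, centring and trends removed, POLR1B with centring and trends removed and DDX52 with trends removed, while FBL passed 2-fold lower with FPKM (-1.03) and centring (-1.20). The causes were not tested.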
